A study of Verbena bonariensis with 6 samples.

Results

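The ICE1 and SCREAM factors of Verbena bonariensis were taken as the clusters (the transcript units of the deposited table) of the bHLH family whose best protein match in the NR or Swissprot collection was named with the word ICE1, ICE2, SCREAM or SCRM. There were 9 such clusters among 444 bHLH clusters and 9740 clusters of transcription factors and other regulators in all. Their expression was followed in leaves of 3-month-old seedlings of the cultivar Finesse. Cold-treated plants spent 24 h at 4 °C followed by 4 h of freezing at -4 °C, and control plants stayed under the growth regime that both groups shared, with a 16 h photoperiod and 25 °C by day and 16 °C by night in the labels. The methods of the study give other, warmer day and night temperatures. Each group had 3 libraries. The labels do not say whether these came from separate plants or pools, so p-values measure only the spread between these libraries.

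ICE1 (INDUCER OF CBF EXPRESSION 1) is a MYC-like bHLH protein that, in Arabidopsis, binds the promoters of CBF/DREB1 genes and raises their transcription in the cold. The CBF proteins then switch on genes that protect the cell from freezing. The same protein is also called SCREAM, and with its close relative SCREAM2, also known as ICE2, it pairs with the bHLH proteins SPEECHLESS, MUTE and FAMA in the successive steps by which an epidermal cell becomes a pair of guard cells. In Arabidopsis much of the known control of ICE1 acts on the protein, through phosphorylation, SUMO attachment and ubiquitination.

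The clusters fell into 4 groups by their best matches. The first group held 3 clusters matched to ICE1 of Sesamum indicum in NR and to ICE1 of Arabidopsis in Swissprot, and is called the ICE1 match here. The next 5 clusters shared a single NR match, an ICE1-like protein of S. indicum, but split in Swissprot, where 2 of them matched ICE1 and 3 matched SCREAM2. The last cluster had another ICE1-like protein in NR and SCREAM2 in Swissprot. The word that placed a cluster in the set stood in the NR name alone for 4 of the 9. No other cluster of the table, in bHLH or in the other families, carried these words or shared these matches. The match scores, which are higher for a closer or longer alignment, were 1561, 1446 and 1236 in NR for the clusters of the ICE1 match, Cluster-14918.94998, Cluster-14918.55422 and Cluster-14918.118790. They were 1311 and 923 for the ICE1-like pair with ICE1 in Swissprot, 1131, 1131 and 1026 for the clusters with SCREAM2 in Swissprot, and 802 for the last cluster, Cluster-14918.194845.

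Clusters of a group shared lengths of their predicted parts. All 3 clusters of the ICE1 match had 168 bases before the predicted coding region, and their longest coding segments were of 1626, 1647 and 1410 bases. Cluster-14918.167293 and Cluster-14918.46958, the ICE1-like pair, had 493 bases before and 190 bases after the coding region, and differed by 228 bases, all of them within it. Cluster-14918.198595 and Cluster-14918.194844, matched to SCREAM2, had the same 353 bases before a coding region of 1527 bases, and differed only by 226 bases after it. Cluster-41930.0 shared the 353 bases before the coding region. In Cluster-14918.55422 and Cluster-41930.0 the coding region was given in 2 segments, of which only the longest was measured here. The same length does not show the same sequence, and the deposited table held lengths and no sequence. In Cluster-14918.194845 the coding region began at the first base, with no bases before it. That region was predicted by the program ESTScan, while those of the other clusters came from BLAST matches.

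**Figure D1:**
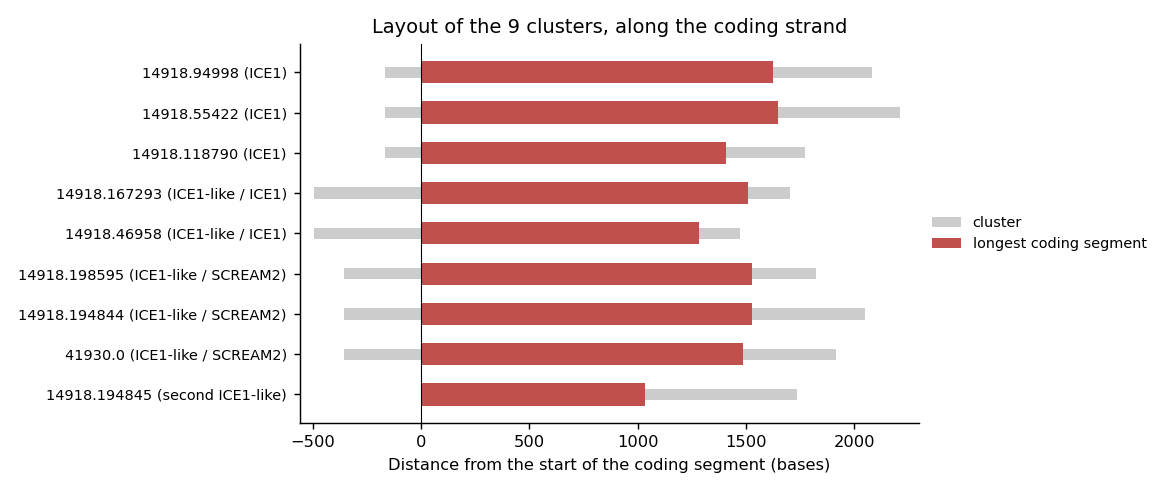
Predicted parts of the 9 ICE1 and SCREAM clusters, 1 row each with its group of best matches, drawn to scale in bases from the start of the longest coding segment (thick bar) within the whole cluster (thin bar). Clusters of a group share the length before the coding segment (168, 493 or 353 bases), and the last one, Cluster-14918.194845, has 0 bases before it.

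The libraries differed in depth. The counts in the table summed to between 722556 and 791041 in cold libraries and to between 991180 and 1213366 in control libraries. The whole libraries, calculated from counts, FPKM and lengths, held 13075842 to 14326497 reads in the cold and 16955644 to 20695408 in the control. A cluster with 3 counts, the floor used here, stood at 0.209 to 0.229 CPM of the whole library in the cold and 0.145 to 0.177 CPM in the control, so the rarer members were near the limit of detection. At an adjusted p below 0.05 with edgeR's quasi-likelihood test, 45.5% of the 5004 clusters tested differed between cold and control, 21.9% being higher and 23.6% lower. Against this background, 5 of the 9 members passed the filter on low counts, of which 2 were higher, 1 was lower and 2 were not called. Their median log2 difference was -0.82, against -0.14 over all clusters tested. This median is the value of the low-count Cluster-14918.118790, which was not called, so it does not describe the members as a set. Among the other bHLH clusters 97 of 230 tested were called, or 42.2%, with 47 (20.4%) higher, 50 (21.7%) lower and a median of -0.23. In normalized CPM, counts per 1e6 counts of the table after scaling, the cold and control libraries did not overlap for 4 of the 5 tested members, against 63.9% of all tested clusters. The members that did not pass the filter all overlapped. The filter can keep a cluster through the group where it is high, as with Cluster-14918.198595, so this count is not a result about the members.

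The most abundant member was Cluster-14918.94998, the cluster closest to ICE1 of S. indicum. Its level was 6.20, 5.19 and 7.39 FPKM in cold libraries, against 3.33, 4.12 and 4.58 FPKM in control libraries. The lowest cold library was above the highest control library, and the means were 6.26 ± 1.10 and 4.01 ± 0.632 FPKM in the cold and the control (SD, n = 3 each). The log2 difference in the count test was 0.89 (SE 0.207, adjusted p = 0.0163 with edgeR). Leaving out control replicate 1 gave an adjusted p of 0.0599, and leaving out control replicate 2 gave 0.0594.

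Cluster-14918.55422, the ICE1-match cluster with the longest predicted coding segment, was also higher in the cold. Its level was 1.95, 3.42 and 2.36 FPKM in cold libraries, against 1.43, 0.86 and 0.71 FPKM in control libraries. The groups did not overlap, and the log2 difference was 1.60 (SE 0.399, adjusted p = 0.0210 with edgeR). This call also depended on single libraries, with an adjusted p of 0.0661 without cold replicate 2, 0.0799 without control replicate 2 and 0.0741 without control replicate 3 in the same edgeR test.

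The shortest cluster of the ICE1 match, Cluster-14918.118790, had its higher levels in the control. It stood at 0.11, 0.24 and 0.45 FPKM in cold libraries, against 0.59, 0.59 and 0.52 FPKM in control libraries. These rested on 2.52, 5.33 and 11.1 estimated counts in the cold and 16.76, 20.67 and 17.38 in the control. The difference did not pass the test (log2 difference -0.82, SE 0.584, adjusted p = 0.312 with edgeR), and the groups overlapped once the counts were scaled as in that test.

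Cluster-14918.167293, the longer of the ICE1-like pair, was the member that fell. Its level was 0.33, 0.33 and 0.31 FPKM in cold libraries, against 1.22, 1.17 and 2.17 FPKM in control libraries. The 3 cold libraries were nearly equal and all lay below the lowest control library. The log2 difference was -1.96 (SE 0.435, adjusted p = 0.0139 with edgeR), and the adjusted p was 0.0567 without control replicate 3, the highest library. Its partner, Cluster-14918.46958, was at 0.24, 0.15 and 0.02 FPKM in cold libraries, against 0.23, 0.42 and 0 FPKM in control libraries, and did not pass the filter.

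Cluster-14918.198595, the main control cluster with SCREAM2 as its Swissprot match, had an uneven level in the cold. It stood at 0, 0.97 and 0.02 FPKM in cold libraries, against 2.38, 1.98 and 1.60 FPKM in control libraries. The groups did not overlap, but cold replicate 2 stood apart from the other cold libraries, and the difference was not called (log2 difference -2.36, SE 1.63, adjusted p = 0.298 with edgeR). Without cold replicate 2 it was called, at -8.96 with an adjusted p of 0.00438 in the edgeR test, a fit in which the cold libraries held 0 and 0.44 counts.

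The remaining members were at or near 0 in most cold libraries. Cluster-14918.194844 was at 1.39, 0 and 0 FPKM in cold libraries, against 0.04, 0.17 and 0.18 FPKM in control libraries. Cluster-41930.0 was at 0, 0 and 0.70 FPKM in cold libraries and at 0 in all 3 control libraries. Cluster-14918.194845, with the second ICE1-like match, was at 0, 0 and 0.18 FPKM in cold libraries, against 0.09, 0.23 and 0.08 FPKM in control libraries. None of the 3 passed the filter on low counts.

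**Figure D2:**
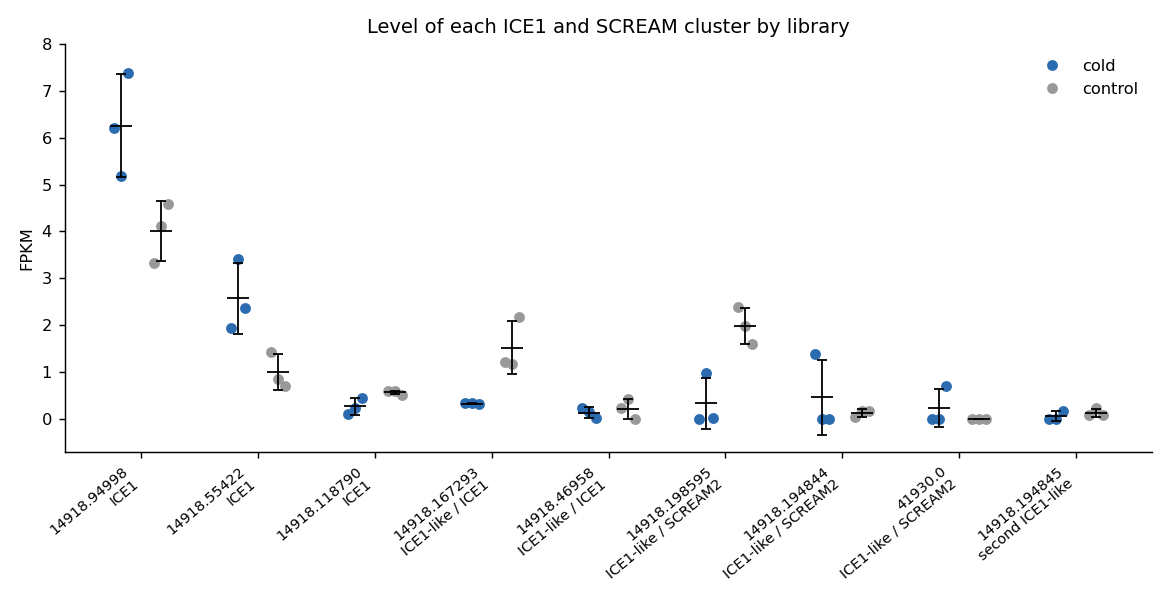
Level in FPKM of each of the 9 ICE1 and SCREAM clusters along the x axis, with a point per library, cold left of control, a horizontal line at the mean and an error bar of 1 SD (n = 3 each). Cluster-14918.94998 reaches 7.39 FPKM in the cold, and Cluster-14918.198595, Cluster-14918.194844 and Cluster-41930.0 are each high in a different cold library.

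In order of level, Cluster-14918.94998 came first and Cluster-14918.55422 next in the cold, without overlap between them or with the cluster below. The other 7 overlapped with their neighbours in the cold. In control leaves Cluster-14918.94998 was again first, while Cluster-14918.198595, Cluster-14918.167293 and Cluster-14918.55422 followed with overlapping levels.

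The SCREAM2-matched clusters with the shared ICE1-like NR match had a different leading cluster in each cold library. Of their summed normalized counts, 100% lay in Cluster-14918.194844 in cold replicate 1, 99.8% in Cluster-14918.198595 in cold replicate 2 and 97.6% in Cluster-41930.0 in cold replicate 3. In the control, Cluster-14918.198595 held 98.2%, 91.4% and 88.6% of them and Cluster-14918.194844 held 1.76%, 8.56% and 11.4%. The counts of the ICE1-like pair were fractional in single clusters, but the sums over the pair were whole in 6 of 6 libraries within 0.02 counts, at 14, 12 and 9 in cold libraries and 47, 62 and 83 in control libraries. The sums of the ICE1 match were whole in 2 of 6 libraries and those of the clusters matched to SCREAM2 in 1 of 6, within the same tolerance. Counts were also summed over clusters of one best match, which can share reads.

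**Figure D3:**
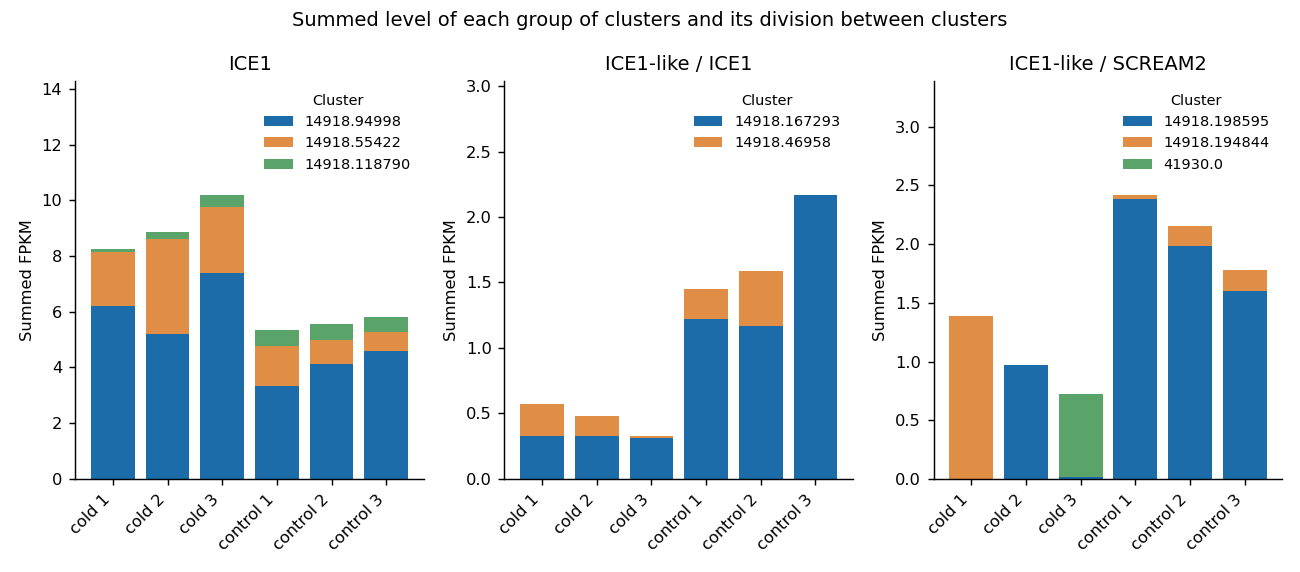
Summed FPKM in each library, 3 cold left of 3 control, for the ICE1 match, the ICE1-like clusters with ICE1 in Swissprot and those with SCREAM2 in Swissprot, with each bar divided by cluster. In the last of these panels a different cluster fills each cold bar, while Cluster-14918.198595 fills most of each control bar, and the summed bars are higher in the cold for the ICE1 match and lower in the cold for the others.

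The summed ICE1 match rose in the cold, with a smaller standard error than any of its clusters. The 3 clusters together stood at 8.26, 8.85 and 10.2 FPKM in cold libraries, against 5.35, 5.57 and 5.81 FPKM in control libraries. The mean level was 9.10 ± 0.995 FPKM in the cold and 5.58 ± 0.230 FPKM in the control (SD, n = 3 each), a ratio of 1.63. In the edgeR test over the 2296 summed best matches, in which 72.3% were called (34.6% higher and 37.7% lower), the log2 difference was 1.11 (SE 0.0993, adjusted p = 2.14e-05), on 373 ± 40.1 normalized CPM in the cold and 173 ± 6.61 in the control (SD, n = 3 each). Normalized CPM are relative to the regulators of the table, which took 5.52 to 5.53% of all reads in the cold libraries and 5.85% to 5.86% in the control libraries, while FPKM are relative to the whole library. Scaled by whole-library reads, the log2 difference was 0.74, where the median over all summed best matches moved by -0.365. In these bulk leaf samples a change in the number of cells of a type and a change in RNA per cell cannot be told apart.

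The summed ICE1-like match, over 5 clusters, went the other way. It stood at 1.96, 1.45 and 1.05 FPKM in cold libraries, against 3.87, 3.74 and 3.95 FPKM in control libraries. The control libraries were close together and all lay above the cold libraries, with a mean of 1.49 ± 0.456 FPKM in the cold and 3.85 ± 0.106 FPKM in the control (SD, n = 3 each). The log2 difference was -0.95 (SE 0.237, adjusted p = 0.00726 with edgeR), and -1.32 with whole-library scaling. The cold and control libraries of both sums did not overlap in normalized CPM, as was so for 77.8% of all tested sums. Both sums kept their calls when any library was left out, with log2 differences of 1.02 to 1.19 for the ICE1 match and -1.22 to -0.75 for the ICE1-like match.

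The ICE1-like clusters were then summed apart by their Swissprot match, and of these sums only the pair matched to ICE1 was called. The pair stood at 0.57, 0.48 and 0.33 FPKM in cold libraries, against 1.45, 1.59 and 2.17 FPKM in control libraries. Its log2 difference was -1.57 (SE 0.342, adjusted p = 0.00419 with edgeR over 2571 sums, of which 71.4% were called, 34.6% higher and 36.8% lower). The clusters matched to SCREAM2 stood at 1.39, 0.97 and 0.72 FPKM in cold libraries, against 2.42, 2.15 and 1.78 FPKM in control libraries, without overlap. In normalized CPM their groups overlapped, where 77.2% of all such sums did not, and the difference was not called (log2 difference -0.59, SE 0.306, adjusted p = 0.123 with edgeR). It was called under 5 alternatives, which with edgeR were leaving out cold replicate 1 (log2 difference -0.90, adjusted p = 0.0269), whole-library scaling (log2 difference -0.95, adjusted p = 0.0234) and library totals alone (log2 difference -0.87, adjusted p = 0.0345). The others were limma on log2(FPKM + 1) (adjusted p = 0.00989) and on log2(FPKM + 0.1) (adjusted p = 0.0159). From the counts alone, the ratio of cold to control was 0.661, with an exact 95% interval of 0.510 to 0.851 that covers counting error only.

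**Figure D4:**
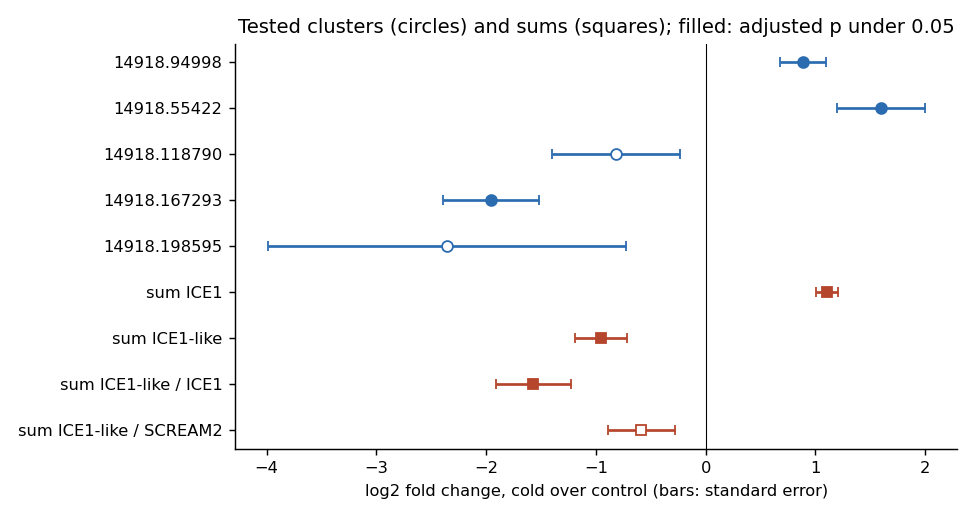
Log2 fold change of cold over control with its standard error, from the edgeR fits, for the tested ICE1 and SCREAM clusters (circles) and for their sums by best match (squares), filled where the adjusted p was under 0.05. The summed ICE1 match lies at 1.11 with the shortest error bar, and the summed ICE1-like match lies at -0.95.

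The difference between these sums was also expressed as a ratio within each library. The ICE1 match had 4.12, 6.49 and 9.92 times the counts of the ICE1-like match in cold libraries, against 1.44, 1.54 and 1.50 times in control libraries. The mean of this ratio was 6.84 ± 2.91 in the cold and 1.49 ± 0.0533 in the control (SD, n = 3 each). It does not depend on how libraries are scaled. Its groups did not overlap, and the log2 ratio was higher by 2.1 in the cold. An exact permutation test, two-sided, gave p = 0.1, the lowest value that 3 against 3 libraries can give. Because the sums went opposite ways without overlap, this outcome was fixed and adds no support beyond them. Over the clusters matched to SCREAM2 alone, the ratio of the ICE1 match was 5.59, 9.61 and 14.2 in cold libraries, against 2.29, 2.65 and 3.32 in control libraries. Over the ICE1-like pair it was 15.7, 20.0 and 33.0 in cold libraries, against 3.86, 3.69 and 2.74 in control libraries. The counts matched to SCREAM2 were 2.81, 2.09 and 2.33 times those of the ICE1-like pair in cold libraries, against 1.68, 1.39 and 0.824 times in control libraries. In each of these ratios the groups did not overlap (p = 0.1 in the same exact permutation test), but the ratios reuse the same sums.

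Expressed as a share of the normalized counts of all 9 clusters, the ICE1 match made up 80.5%, 86.7% and 89.8% in cold libraries, against 58.5%, 59.5% and 59.6% in control libraries. The ICE1-like NR match made up 19.5%, 13.4% and 9.05% in cold libraries, against 40.7%, 38.6% and 39.7% in control libraries. Within the ICE1 match, Cluster-14918.118790 held 1.15%, 2.22% and 3.74% of the counts in cold libraries, against 9.25%, 9.03% and 7.65% in control libraries, while the shares of its other clusters overlapped between the groups. The sum over all members was 10.2, 10.3 and 11.4 FPKM in cold libraries, against 9.31, 9.54 and 9.84 FPKM in control libraries, a ratio of mean levels of 1.11. In normalized counts the log2 ratio was 0.44, and the groups did not overlap on either scale (exact two-sided permutation test of the normalized counts, p = 0.1).

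Clusters matched to the DREB1/CBF family, which includes the genes that ICE1 is known to act on in Arabidopsis, changed in both directions. The list took every DREB1 or CBF name and was not limited to known ICE1 targets. Of 20 clusters with such a match 13 were tested, of which 7 were higher and 6 lower, and by best match 6 of 10 tested were higher and 4 lower. Over all features these shares were 21.9% higher and 23.6% lower for clusters, and 34.6% higher and 37.7% lower for best matches. The largest increase was that of Cluster-14918.12168, a DREB1B-like match with 1976, 1944 and 2095 normalized CPM in cold libraries, against 0, 0.806 and 0.847 in control libraries, which rested on 2 control counts (ratio of counts 3464, exact 95% interval 958.4 to 28610). Cluster-14918.69521, a DREB1D-like match, fell by 5.02 on the log2 scale. The summed level of the 20 clusters was 7011, 7219 and 7378 normalized CPM in cold libraries, against 1875, 1924 and 1906 in control libraries.

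Of the bHLH partners of ICE1 and SCREAM2 in the stomatal lineage, 12 clusters were in the table and 3 were tested, all of them matches of FAMA, which acts at the last division that makes guard cells. Cluster-14918.174143 was higher, at 141, 146 and 128 normalized CPM in cold libraries, against 83.5, 60.4 and 87.3 in control libraries (log2 difference 0.84, SE 0.228, adjusted p = 0.0275 with edgeR). The others, Cluster-14918.174147 at -0.62 and Cluster-14918.174140 at 1.73, did not pass. The SPEECHLESS-like match, whose Arabidopsis relative starts the lineage, was at 23.0, 12.5 and 22.3 normalized CPM in cold libraries, against 8.29, 6.01 and 7.92 in control libraries, and did not pass the filter. No cluster was matched to the MYB factors searched for, which end guard-cell division in Arabidopsis.

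Of the regulators that bind or modify ICE1 in Arabidopsis, 2 of 30 tested clusters were higher and 10 lower, against 21.9% and 23.6% of all clusters tested. These are the repressor MYB15, the SUMO ligase SIZ1 and the JAZ (TIFY) repressors of jasmonate signalling, while no cluster was matched to the ubiquitin ligase HOS1. By best match 3 of 11 were higher and 3 lower, where 72.3% of all best matches were called. Of 3 SIZ1 best matches, the sum of SIZ1 isoform X1 fell (log2 difference -1.79, SE 0.0925, adjusted p = 7.22e-07 with edgeR), while those of SIZ1-like isoform X1 (log2 difference -0.35, adjusted p = 0.419) and isoform X2 (log2 difference -1.48, adjusted p = 0.0875) were not called in that edgeR fit. Cluster-14918.84544 of SIZ1 isoform X1 was at 0 in all 3 cold libraries, against 81.2, 53.2 and 32.1 normalized CPM in control libraries. Of the TIFY clusters, Cluster-14918.110407 and Cluster-14918.99858, TIFY 10A-like in NR, were higher by 1.41 and 1.36 on the log2 scale. Cluster-14918.117394, TIFY 10B-like in NR but TIFY 10A in Swissprot, fell by 4.67. Other best matches with TIFY 10A in Swissprot went both ways. A hypothetical protein of Ricinus communis rose by 2.37, and TIFY 10B-like isoform X1 fell by 2.45. TIFY 10A-like isoform X3 (log2 difference 0.04) and TIFY 10A of Erythranthe guttatus (log2 difference -0.07) were not called. The MYB15 match, 1 cluster with ODORANT1 as its Swissprot match, did not pass (log2 difference -1.98, adjusted p = 0.159 with edgeR). On the scale of the summed fit it was at 18.4, 0 and 0 normalized CPM in cold libraries, against 25.1, 32.9 and 14.5 in control libraries. Among other regulators of CBF genes, 6 of 38 tested clusters were higher and 13 lower, a called share near the 45.5% of all clusters tested. By best match 4 of 12 tested were higher and 8 lower, against 34.6% and 37.7% of all best matches. PIF4 is a light-regulated bHLH factor, and the tested best matches named PIF4 were higher, by 2.51 and 0.75 on the log2 scale. The summed match of the calmodulin-binding activator CAMTA4 was lower at -2.35, and that of EIN3 of S. indicum with the most clusters, a factor of ethylene signalling, at -1.75.

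**Figure D5:**
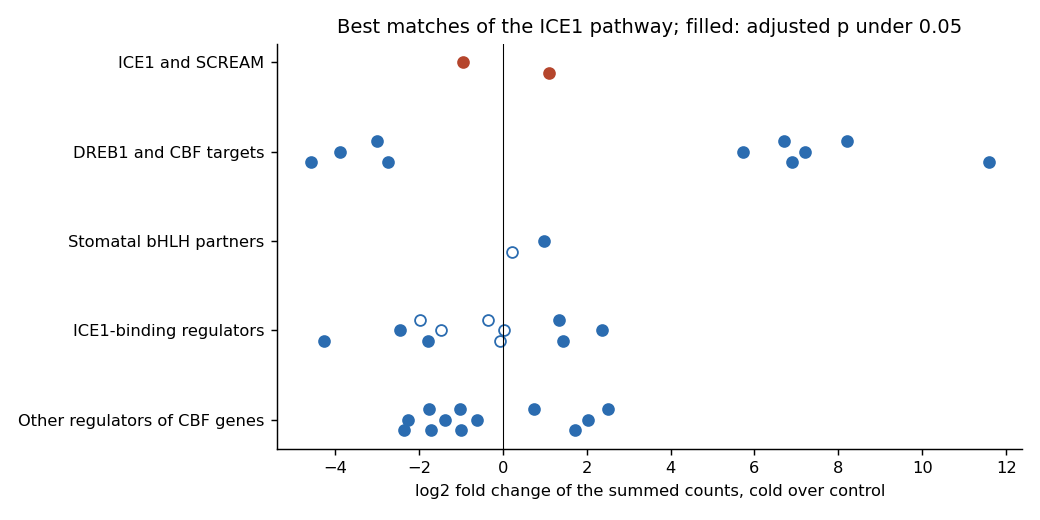
Log2 fold change of cold over control for each tested best match, from the edgeR fit on summed counts, with a row for the ICE1 and SCREAM matches and for each pathway list and filled points where the adjusted p was under 0.05. Of the 10 DREB1 and CBF matches 6 lie above 0 and 4 below, and the 2 ICE1 and SCREAM matches lie at 1.11 and -0.95.

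The best matches whose levels over the 6 libraries were most like the summed members, out of 2340 with at least 10 normalized CPM, were ILR3-like, TCP2-like, HSF8, GATA 8 and ALFIN-LIKE 1-like. Their root mean square differences from the members were 0.0312, 0.0382, 0.0394, 0.0417 and 0.0441 in log2 normalized CPM after centring. ILR3-like, a bHLH factor like the members, averaged 1383 ± 93.9 normalized CPM in the cold and 916 ± 47.1 in the control (SD, n = 3 each).

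The summed levels of regulators that mark cell types differed in part between cold and control. The called counts below stand against all clusters tested, of which 21.9% were higher and 23.6% lower. The 27 clusters of epidermal regulators, matched to MERISTEM L1, PROTODERMAL FACTOR 2 and ANTHOCYANINLESS 2, summed to between 1871 and 2004 normalized CPM in cold libraries and between 4173 and 4252 in control libraries, with 2 higher and 6 lower of 20 tested. The 8 guard-cell clusters, all in the FAMA group, summed to between 206 and 272 in cold libraries and between 150 and 175 in control libraries, with 1 higher of 3 tested and 1 cluster at 0 throughout. The 8 vascular clusters summed to between 81.9 and 119 in cold libraries and between 220 and 232 in control libraries, with 3 lower of 5 tested and 1 cluster at 0 throughout. The 31 clusters of leaf photosynthetic tissue were named GLK1, GLK2 or Golden2-like in either match. They summed to 2023 to 2061 in cold libraries and 1778 to 1903 in control libraries, with 1 higher and 1 lower of 13 tested. The 21 clusters with GLK1 or GLK2 in Swissprot went the other way. These summed to 1301 to 1373 in cold libraries and 1417 to 1534 in control libraries, with 0 higher and 1 lower of 9 tested. No cluster was matched to the root markers, and the 2 flower clusters summed to at most 1.49 in the cold and 31.4 in the control. The part of these cell types in the values of the ICE1 and SCREAM clusters was not tested.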

How the data were processed

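Leaf RNA of 3 cold-treated and 3 control samples was sequenced by the authors and quantified per cluster, the unit of the deposited table. The deposited table held, for regulators only, estimated counts and FPKM per library, lengths and coding positions in bases, and the score of the best NR and Swissprot matches. The submitters' processing notes name Bowtie2 2.0.6 and TopHat2 2.0.12, with no role. The sources used here do not say how the clusters were built or name the counting program. The deposited columns of the authors' own comparison (ratio, q-value and direction) were not used. Of 10251 lines, 9740 were separate clusters. 492 clusters stood on more than one line, always with equal values, and entered once.

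Estimated counts as deposited were rounded and tested with edgeR 4.0.16 (R 4.3.3): TMM factors, filterByExpr with a minimum count of 10, quasi-likelihood test, Benjamini-Hochberg adjustment over all 5004 clusters, threshold 0.05. Counts were also summed over clusters with the same NR match (2296 tested) and, an alternative added after the data were seen, over those with the same NR and Swissprot matches (2571 tested). Normalized CPM are relative to the table's counts with the factors of the fit at the same level. Values of best matches, including MYB15, SPEECHLESS and MUTE, took the factors of the summed fit. Those of single clusters took the factors of the cluster fit, so the scales differ. FPKM as deposited by the authors are relative to length and to the whole library. Whole-library reads were fitted from counts, FPKM and lengths, with a misfit of at most 0.0261%. Single values were compared with exact permutation tests. Intervals and floors (3 counts) cover counting error only. Alternatives were DESeq2 1.42.0, limma 3.58.1 on log2(FPKM + 1) and log2(FPKM + 0.1), other scalings and filters, a replicate block and leaving out each library.

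Replicate numbers did not pair the libraries: deviations of libraries with the same number had correlations of -0.03, -0.014 and -0.005. The 9 members, the lists and the tests were chosen with earlier results of these data known. Named clusters were all members that passed the filter. Those of the other lists were taken from up to 3 clusters in each direction with the largest change among called clusters of at least 1 normalized CPM, from every tested stomatal bHLH cluster and from the best matches these belong to; not all of them are printed. Words for the lists stood in the best-match names, and 4 matches to a yeast protein named CBF1 were left out.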

Additional observations from a re-analysis of the deposited data

How the results depend on the processing

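The summed ICE1 and ICE1-like matches, and the pair matched to ICE1 in Swissprot, kept direction and call under every alternative run, including the replicate block (adjusted p of 0.00025, 0.018 and 0.027 with edgeR). With the replicate block 640 clusters were higher and 671 lower, and at an adjusted p of 0.01 the counts were 714 and 787. Of the ICE1 and SCREAM clusters, 0 were higher and 0 lower under the block or at 0.01. Under the block the log2 differences of Cluster-14918.94998, Cluster-14918.55422 and Cluster-14918.167293 were 0.89, 1.62 and -1.90, with adjusted p of 0.0515, 0.0877 and 0.0831 (edgeR). Of the members, 1 was higher with a log2 difference of at least 1, and 2 were lower with limma at either pseudocount. The call of Cluster-14918.198595 was gained with limma, at -1.23 and -3.14. The pathway lists had 45 lower clusters with limma on log2(FPKM + 1), against 29. The clusters matched to SCREAM2 were called, at -0.87 with library totals alone, -0.95 with whole-library totals, and -0.63 and -1.01 with limma at pseudocounts of 1 and 0.1. The log2 ratio of the sum over all members was 0.30 with library totals alone, 0.21 with whole-library totals, 0.16 from FPKM and 0.67 with members by the Swissprot name only. The cause was not tested.

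With each library left out in turn, 925 to 984 clusters were higher and 960 to 1240 lower, 0 to 2 ICE1 and SCREAM clusters were higher and 0 to 2 lower, 754 to 794 summed matches were higher and 785 to 860 lower, and 14 to 16 clusters of the pathway lists were higher and 25 to 33 lower. The log2 difference was 1.02 to 1.19 for the ICE1 match, -1.22 to -0.75 for the ICE1-like match, -1.73 to -1.38 for the pair, -0.90 to -0.39 for the clusters matched to SCREAM2 and 0.40 to 0.47 for all members. Of the members, 4 did not pass the filter on low counts. Among them, Cluster-14918.194844 had 39.4 counts in cold replicate 1 and Cluster-41930.0 had 20.5 in cold replicate 3. The part of depth in this was not tested.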

Other observations

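MUTE is a stomatal bHLH partner of ICE1 and SCREAM2 that in Arabidopsis ends the divisions of the stomatal precursor. Its summed match was at 6.09, 10.7 and 18.2 normalized CPM in cold libraries, against 1.84, 4.51 and 0.792 in control libraries. The groups did not overlap, as was so for 77.8% of all tested sums, and the match did not pass the filter on low counts. The summed FAMA isoform X1 match averaged 153 ± 11.8 normalized CPM in the cold and 77.8 ± 17.4 in the control (SD, n = 3 each), with a log2 difference of 0.98 (SE 0.195, adjusted p = 0.00232 with edgeR). The summed FAMA isoform X2 match averaged 88.4 ± 30.7 in the cold and 75.9 ± 2.74 in the control and was not called (log2 difference 0.22, adjusted p = 0.453 with edgeR).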
